A study of Mus musculus with 25 samples.

Results

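The follicle-associated epithelium (FAE) is the layer of intestinal epithelial cells that covers a lymphoid follicle. The libraries described here are the 5 from the FAE top (FAET), over the dome of isolated lymphoid follicles (ILFs), and the 5 from the FAE bottom (FAEB), at the follicle's base, out of 25 libraries in all. They were chosen by their segment label alone. Both groups came from the jejunum of untreated C57BL/6 male mice aged 3 months and fed chow. Each of 5 repeats gave 1 library of each segment. The first pair of repeats was taken from mouse 1, and repeats 3 to 5 came from mouse 2. Each library pooled tissue of at least 3 follicles that had been cut from stained sections by laser capture microdissection (LCM), and its RNA was counted with unique molecular identifiers (UMIs), tags that mark each captured mRNA molecule before amplification. The other 15 libraries, from the villus bottom (VB), the ILF bottom (ILFB) and the ILF top (ILFT), entered the estimate of the spread. As only 2 animals were sampled, the p-values measure the spread between libraries of these animals.

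FAE cells are born in the crypts that flank the follicle and migrate over the dome, so that FAEB and FAET lie along their path. Enterocytes on a villus change their functions along the same kind of path, from antimicrobial defense near the base to nutrient uptake and lipid export, and a last set of genes at the tip. The FAE differs from the villus in having few goblet cells and in holding M cells, which carry antigens from the lumen to the lymphocytes below. The comparison asks which genes change along this migration path.

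The markers were set against the labels first. A list of 18 genes of all intestinal epithelial cells took 14.3, 33.0, 23.6, 83.5 and 50.04 of 10,000 UMIs in FAET of repeats 1 to 5, against 39.6, 58.5, 90.6, 61.6 and 78.0 in FAEB. A list of 18 genes of all leukocytes took 34.4, 1.86, 12.9, 3.96 and 9.23 in FAET, against 2.73, 6.08, 3.29, 3.04 and 3.13 in FAEB. In the library labelled FAET of repeat 1 the leukocyte genes outnumbered the epithelial genes, with 269 against 112 UMIs, and in the other 9 libraries the epithelial genes led. Counts over all genes are therefore given with and without that library, as are many of the lists. For most single genes the UMIs of each library are printed. It was 1 of 6 among the 25 libraries whose markers went against the label.

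FAET libraries were shallower than FAEB libraries. They held 78224, 21529, 23314, 70784 and 48759 UMIs, against 91644, 85530, 100416, 69146 and 76645 in FAEB. At a common depth of 21529 UMIs, the number of genes expected with at least 1 UMI was 4924, 1507, 1887, 3558 and 2530 in FAET, against 3834, 3577, 4346, 3805 and 3566 in FAEB. The means were 2881 ± 1381 in FAET and 3826 ± 316 in FAEB (SD, n = 5 each, exact permutation within mice, 2-sided p = 0.217). Without FAET of repeat 1 the FAET mean was 2371 ± 897 (n = 4) and every FAET library lay below every FAEB library (exact permutation p = 0.0167, the smallest that the 60 arrangements can give). FAET molecules were thus spread over fewer genes at equal depth in 4 of 5 libraries, while the library with leukocyte markers held the most genes of the 10.

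**Figure D1:**
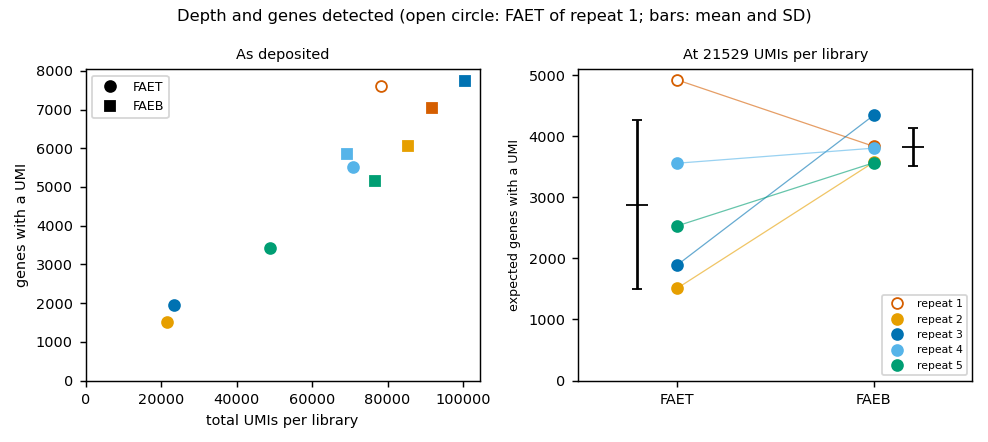
Depth and genes detected in the 10 FAE libraries. The left panel plots genes with at least 1 UMI against total UMIs per library, and the right panel the number of genes expected at 21529 UMIs, with lines joining libraries of a repeat and bars for the mean and SD. The open circle is FAET of repeat 1, at 4924 genes, and the other FAET libraries lie between 1507 and 3558, below the lowest FAEB library at 3566.

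In the fit used here most genes had lower values at the FAE top, and none passed the test over all genes. A gene was tested where 3 or more libraries held 3 or more of its UMIs. Of 9956 such genes, edgeR's quasi-likelihood test with terms for mouse and segment called 0 in either direction at a Benjamini-Hochberg adjusted p under 0.05 (smallest adjusted p = 0.0963). DESeq2 called 3 and limma-voom 0. At an unadjusted edgeR p under 0.05 there were 957 genes lower in FAET (9.61% of those tested) and 467 higher (4.69%), and 62.1% of all genes had a negative fold change. The median log2 fold change of FAET over FAEB was -0.48 over all genes, and gene lists below are to be read against it. Its size depended on the fit. It was -0.26 with RLE size factors, -0.096 with DESeq2, -0.047 with no filter and -0.037 with limma-voom. Counts of list members are likewise to be read against the shares of all genes. No list was tested as a set. Because each library is a bulk of captured cells, fewer cells of a type and less RNA per cell cannot be told apart in any of these values.

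In edgeR the excess of lower values was larger without FAET of repeat 1. Of 9763 genes tested, 1108 were lower (11.3%) and 291 higher (2.98%) at an unadjusted edgeR p under 0.05, 71.9% had a negative fold change, and the median was -1.15. Without that library the median was -0.41 with DESeq2 and -0.015 with limma-voom. With the repeat as a replicate block, 754 genes were lower (7.57%) and 228 higher (2.29%) with all libraries, and 827 (8.47%) and 145 (1.49%) without FAET of repeat 1. Taken by repeats, 331 genes were lower in all 5 (3.32%) and 9 higher in all 5 (0.0904%). In at least 4 repeats, 1603 were lower (16.1%) and 142 higher (1.43%). FAET of repeats 2 and 3 held only 1507 and 1956 genes with at least 1 UMI, against 5153 to 7728 in FAEB. A gene at 0 in a FAET library can only be lower there or equal. The excess of lower genes by repeat, and in the counts of libraries without overlap that follow, therefore cannot be told apart from depth. The UMIs per 10,000 of 213 genes lay lower in all 4 FAET libraries than in every FAEB library (2.18%), and those of 9 lay higher (0.0922%). With all 10 libraries these counts were 70 (0.703%) and 3 (0.0301%), the 3 being Peli2, Gm816 and D430042O09Rik. The test called Ccdc166 higher and Phldb1 lower (0.0102% each), and each rests on a single library. Ccdc166 had 152 UMIs in FAET of repeat 5 and 0 in the other 9 libraries, and Phldb1 had 1119 UMIs in the FAEB library of repeat 4, with no more than 8 in any other of the 10. Both are named because they were called, after their values were seen, and with the repeat as a replicate block neither was called.

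**Figure D2:**
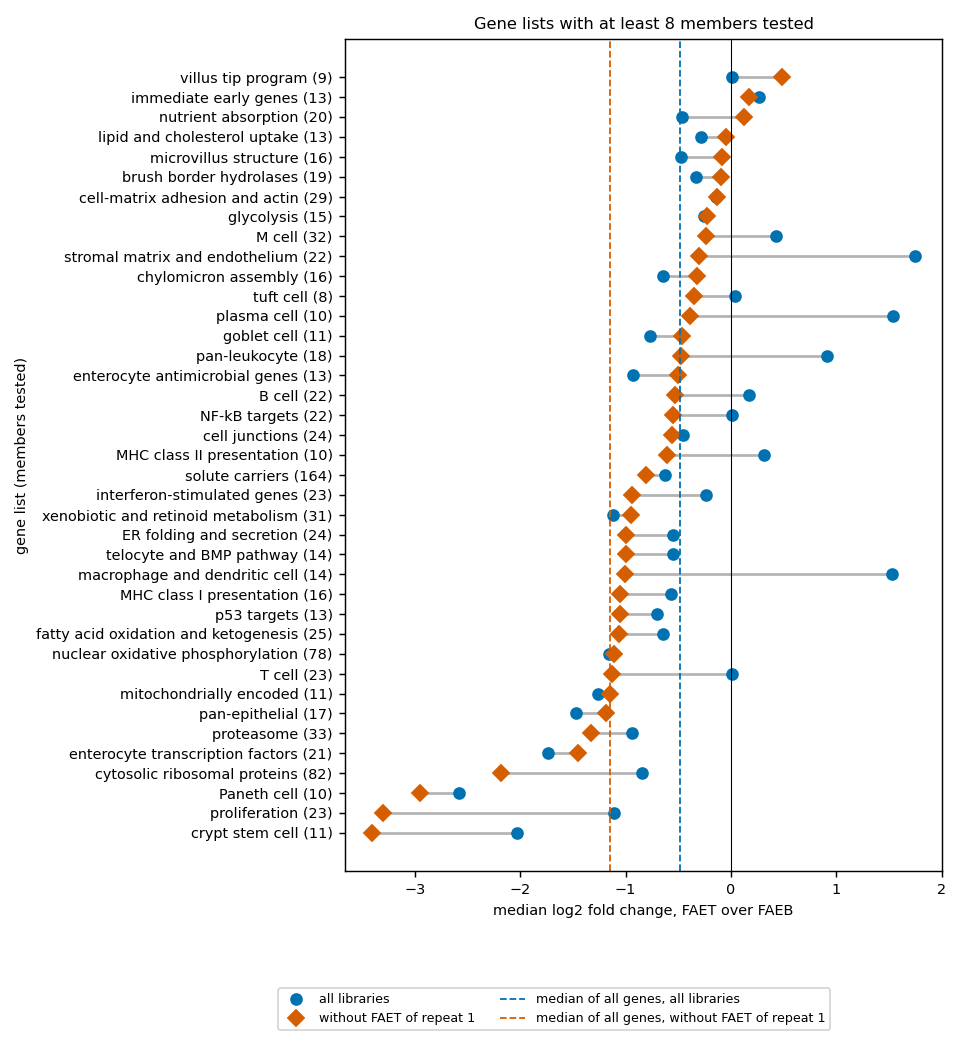
Median log2 fold change of FAET over FAEB in each gene list with at least 8 genes tested. Circles are the fit of all libraries and diamonds the fit without FAET of repeat 1, the dashed lines mark the medians of all genes (-0.48 and -1.15), and the number of genes tested stands beside each list. The stromal and pan-leukocyte lists lie right of zero only with FAET of repeat 1 and right of the median of all genes in both fits, and the proliferation list moves to -3.30 without it.

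The gene with the smallest p of those chosen by rule was Elf3, an ETS transcription factor of epithelial differentiation (chr1:135253575-135258568, minus strand). It had 0 UMIs in all 5 FAET libraries, against 4, 6, 21, 5 and 20 in FAEB. FAEB of every repeat lay above FAET, and VB held 7, 8, 2, 0 and 0. With a limit of 3 UMIs over the FAET group, which covers counting error only, Elf3 was at least 10.7-fold lower in FAET (edgeR adjusted p = 0.301). This limit, and the fold limits of other genes below, pool all 5 FAET libraries. FAET of repeat 1 gave 78224 of their 242610 UMIs, so limits without it would be smaller. In the fit without that library the log2 fold change of Elf3 was -6.51 (edgeR adjusted p = 0.279). Of 21 enterocyte transcription factors tested, 17 had a negative fold change, with a median of -1.74, and 3 were lower at an unadjusted p under 0.05. Over all genes 62.1% were negative and 9.61% lower at that threshold. Elf3 and Gata4, a regulator of intestinal genes, were among the 3. Gata4 had 0 UMIs in FAET, against 2, 1, 11, 0 and 6 in FAEB, at least 3.82-fold lower over the groups. The list's median without FAET of repeat 1 was -1.45, against -1.15 for all genes.

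The other 11 genes were taken as those with the smallest p among the 487 that were lower in FAET in at least 4 of 5 repeats and averaged at least 10 UMIs in FAEB. Aldh1b1, a mitochondrial aldehyde dehydrogenase, had 1 UMI in FAET of repeat 1 and 0 in the other FAET libraries, against 13, 5, 38, 16 and 10 in FAEB (log2 fold change -5.63, standard error 1.61, edgeR adjusted p = 0.307, and -7.11 without FAET of repeat 1). Serp1, a small membrane protein of the endoplasmic reticulum, had 1, 0, 0, 0 and 0 in FAET, against 9, 11, 18, 5 and 7 in FAEB. Nars, the asparaginyl-tRNA synthetase, had 0, 0, 0, 3 and 0 in FAET, against 11, 8, 21, 14 and 20 in FAEB. In each of these 3 genes every FAEB library lay above its FAET partner.

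Lgals2, the lectin galectin-2, was the most abundant of the 12. It had 10, 0, 0, 14 and 0 UMIs in FAET, against 39, 3, 101, 74 and 114 in FAEB (log2 fold change -3.27, standard error 1.13, edgeR adjusted p = 0.307, and -3.91 without FAET of repeat 1). The groups overlapped through FAEB of repeat 2, which held 3. Calml4, a calmodulin-like protein of the brush border, had 0, 0, 0, 3 and 0 in FAET, against 1, 19, 33, 4 and 12 in FAEB. Dmbt1, a secreted scavenger receptor of mucosal defense that overlaps Fgfr2 on the other strand, had 6, 0, 0, 2 and 0 in FAET, against 25, 0, 35, 17 and 19 in FAEB. Kif5b, a heavy chain of kinesin, had 1, 1, 0, 1 and 0 in FAET, against 10, 10, 19, 8 and 8 in FAEB, with no overlap of the groups. Rbm26, an RNA-binding protein, had 2, 0, 0, 0 and 0 in FAET, against 6, 10, 7, 21 and 16 in FAEB. Pnp, a purine nucleoside phosphorylase, had 6, 0, 0, 0 and 0 in FAET, against 17, 36, 16, 10 and 2 in FAEB, and is uncertain because the annotation places further Pnp models and Pnp2 on the same strand there.

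**Figure D3:**
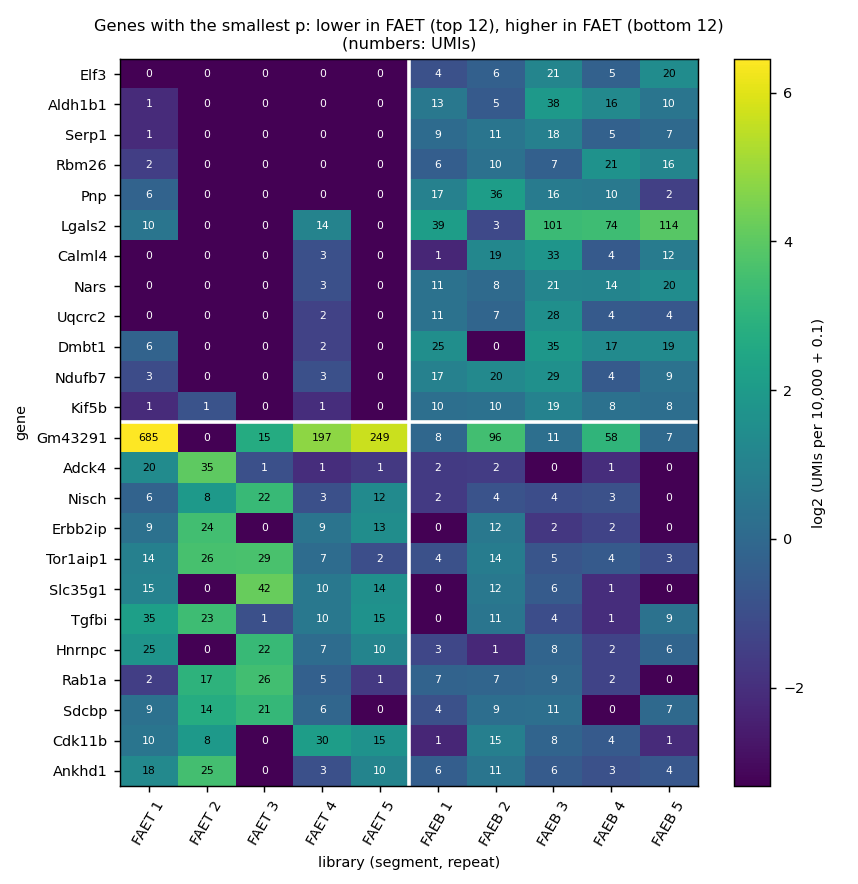
The 12 genes lower and the 12 genes higher in FAET with the smallest p under the rule, 1 row per gene and 1 column per library, FAET first. The color is log2 of UMIs per 10,000 plus 0.1, and the numbers are UMIs. The lower genes are at or near 0 in most FAET libraries (Elf3 0 in all 5), while each higher gene varies widely among the FAET libraries (Gm43291 between 0 and 685 UMIs).

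The last pair of those 12 genes belong to the respiratory chain, which mitochondria use to make ATP. Uqcrc2, a core subunit of complex III, had 0, 0, 0, 2 and 0 UMIs in FAET, against 11, 7, 28, 4 and 4 in FAEB (log2 fold change -4.05, standard error 1.45, edgeR adjusted p = 0.307). Ndufb7, a subunit of complex I, had 3, 0, 0, 3 and 0 in FAET, against 17, 20, 29, 4 and 9 in FAEB (-3.40, standard error 1.28, edgeR adjusted p = 0.307). In both genes all FAET libraries lay below all FAEB libraries per 10,000 UMIs. Without FAET of repeat 1 the log2 fold changes of Uqcrc2 and Ndufb7 were -3.67 and -3.78. Of 78 nuclear genes of oxidative phosphorylation, 67 had a negative fold change and the median was -1.16, beside -0.48 over all genes. Their sum was 97.4, 111, 159, 85.8 and 83.7 of 10,000 UMIs in FAET, against 111, 97.4, 227, 115 and 172 in FAEB, lower in FAET in each repeat but the second. At an unadjusted edgeR p under 0.05, 14 were lower and 0 higher, where 9.61% of all genes were lower. The libraries of 3 of the 78 did not overlap between the groups (0.703% of all genes), and the third of these was Cox7a2, a subunit of complex IV (5, 0, 0, 11 and 0 UMIs in FAET, against 17, 26, 37, 13 and 15 in FAEB). In the fit that left out FAET of repeat 1, 19 were lower, where 11.3% of all genes were, and the median was -1.11, beside -1.15 over all genes.

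The genes that mitochondria encode themselves were lower in FAET in every repeat. The 11 messages took 261, 440, 359, 311 and 244 of 10,000 UMIs in FAET, against 406, 575, 651, 562 and 350 in FAEB. All 11 had a negative fold change, with a median of -1.26, beside -0.48 over all genes. Without FAET of repeat 1 their median was -1.14, no lower than the -1.15 of all genes. The most abundant, mt-Nd4l, a complex I subunit, had 1429, 441, 479, 1223 and 640 UMIs in FAET, against 2392, 3358, 3976, 2368 and 1480 in FAEB (-1.26, standard error 0.52, edgeR adjusted p = 0.307). The mitochondrial ribosomal RNA mt-Rnr2 did not share this direction, with 277, 1628, 1056, 836 and 1095 of 10,000 UMIs in FAET, against 1028, 1118, 617, 780 and 745 in FAEB. Nuclear Rn18s-rs5 took 1076 ± 315 of 10,000 UMIs in FAET and 929 ± 456 in FAEB (SD, n = 5 each), a difference within the spread of either group. Malat1, a long RNA kept in the nucleus, took 95.4, 21.4, 79.4, 87.7 and 96.8 in FAET, against 35.5, 63.8, 18.0, 46.1 and 31.1 in FAEB, higher in 4 of 5 repeats. Whether the share of nuclear RNA bears on the lower mitochondrial messages was not tested.

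Ribosomal protein genes were lower in FAET in 4 repeats and higher in repeat 1, so that their result turned on the library with leukocyte markers. Ribosomal proteins make up the protein part of the cytosolic ribosome, and their messages share an untranslated leader that begins at a run of pyrimidines. The study had applied this list to these libraries, so its direction is not independent evidence. The 82 genes took 673, 53.4, 123, 111 and 134 of 10,000 UMIs in FAET, against 275, 61.4, 374, 289 and 501 in FAEB. FAET of repeat 1 lay within the range of ILFB (356 to 1077) and above that of ILFT (175 to 514). FAEB of repeats 3 and 5 also lay within the ILFB range, and FAEB of repeat 2 was at the level of the other FAET libraries. With all libraries 73 of 82 had a negative fold change with a median of -0.84, and 0 were past an unadjusted edgeR p of 0.05 in either direction. Without FAET of repeat 1, 81 of 82 were negative, the median was -2.19 beside -1.15 over all genes, and 40 of 82 were lower at that threshold, where 11.3% of all genes were.

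The direction of the ribosomal list differed between the mice when all libraries were used. Its median was 0.42 in mouse 1, which holds FAET of repeat 1, and -1.96 in mouse 2. Over the alternatives to the fit without that library, between 9 genes (mouse 1 alone) and 63 genes (limma-voom) of the list were lower at an unadjusted p under 0.05.

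Single ribosomal protein genes were near absent from the 4 other FAET libraries. Rpl8 had 80 UMIs in FAET of repeat 1 and 0, 0, 3 and 1 in repeats 2 to 5, against 52, 9, 46, 23 and 56 in FAEB (without FAET of repeat 1: log2 fold change -4.74, standard error 1.32, edgeR adjusted p = 0.183). Rps15a had 86, 0, 0, 0 and 1 in FAET, against 22, 0, 64, 18 and 55 in FAEB. When FAET of repeat 1 was left out, DESeq2 called 26 genes lower and limma-voom 42, of which 10 and 12 were ribosomal protein genes and 4 and 8 pseudogenes. Both tools called the same 23, among them Rpl22l1, Rpl27, Rpl4, Rpl7a, Rpl8 and Rps15a, while edgeR gave the 23 adjusted p-values above 0.05.

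Several of the other 15 lie over ribosomal sequences. Ctla4, an inhibitory receptor of T cells, had 48, 0, 1, 2 and 0 UMIs in FAET, against 17, 4, 28, 11 and 38 in FAEB, a pattern like that of the ribosomal genes. It spans the pseudogene Rpl18-ps1 on its own strand (chr1:60900898-60901422), which is not a row of the table. Tecpr2, a factor of autophagy, had 61, 0, 0, 1 and 2 in FAET, against 38, 2, 45, 19 and 48 in FAEB, and spans Rps19-ps6 on its own strand (chr12:110898114-110898551). Orc5, of the replication origin complex, spans another processed pseudogene on its strand. The counts of these genes are therefore uncertain. Gm15427, Gm28911 and Gm9385 are processed pseudogenes. Among the rest, Hsp90ab1, a cytosolic chaperone, had 64, 0, 0, 16 and 3 in FAET, against 90, 9, 55, 73 and 95 in FAEB (-2.05 with all libraries, edgeR adjusted p = 0.338, and -3.45 without FAET of repeat 1). Ccnd2, cyclin D2, Gas5, a host of small nucleolar RNAs with a pyrimidine-rich start, and Cox5a, a subunit of complex IV, were also called by both tools.

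The start sites of 5 ribosomal genes that both tools called are shown so that the letters at their starts can be compared. Each is 10 bases before and 20 bases after the annotated start in RefSeq (GRCm38.p6), 5′ to 3′ on the transcribed strand. The first CTTTC or CTTCC is in capitals where either occurs. In Rpl7a a further CTTTC, which overlaps the marked one, is not in capitals. Rpl8 is named only. Of the 5 windows, those of Rpl27 and Rpl4 hold neither motif.
Rpl22l1 (chr3:28805498-28805527, plus): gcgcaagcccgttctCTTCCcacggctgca
Rpl27 (chr11:101442235-101442264, plus): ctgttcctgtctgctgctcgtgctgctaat
Rpl4 (chr9:64173377-64173406, plus): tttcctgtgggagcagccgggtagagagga
Rpl7a (chr2:26910797-26910826, plus): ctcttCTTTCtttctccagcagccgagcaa
Rps15a (chr7:118116128-118116157, minus): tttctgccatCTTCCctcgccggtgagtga

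Of 72 start windows of the 61 matched ribosomal protein genes, 26 held CTTTC or CTTCC on that strand (36.1%), against 3218 of 32851 windows of all promoters (9.80%). The motifs were chosen after the windows were seen, and a match is a description of the letters.

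The proteasome, which degrades tagged proteins, had lower sums in FAET in 4 of 5 repeats. Of its 33 genes, 28 had a negative fold change (median -0.94, beside -0.48 over all genes), and 8 were lower and 0 higher at an unadjusted edgeR p under 0.05, where 9.61% of all genes were lower and 4.69% higher. Their sum was 17.4, 12.5, 13.3, 12.6 and 15.2 of 10,000 UMIs in FAET, against 15.9, 16.7, 21.3, 21.0 and 25.6 in FAEB. Psmd11, a subunit of the regulatory cap, had 2, 0, 0, 1 and 1 UMIs in FAET, against 9, 17, 10, 10 and 7 in FAEB (-3.37, standard error 1.34, edgeR adjusted p = 0.307). Leaving out FAET of repeat 1 gave 3 of 33 lower, where 11.3% of all genes were, and a median of -1.32, near the -1.15 of all genes. Genes of protein folding in the endoplasmic reticulum took 27.4 ± 6.11 of 10,000 UMIs in FAET and 26.9 ± 6.94 in FAEB (SD, n = 5 each).

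**Figure D4:**
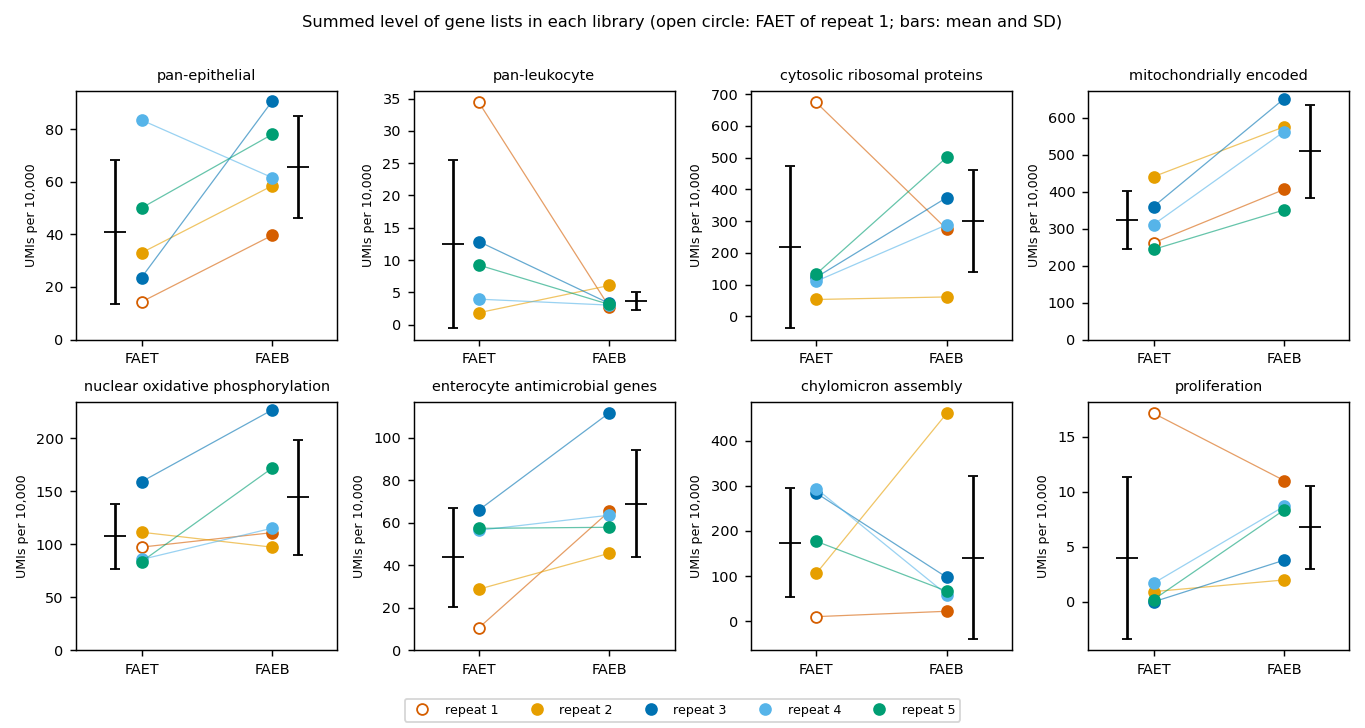
Summed UMIs per 10,000 of 8 gene lists in each FAE library, FAET left and FAEB right, with a line for each repeat, bars for mean and SD, and an open circle for FAET of repeat 1. Mitochondrially encoded and antimicrobial genes are lower in FAET in 5 of 5 repeats, and FAET of repeat 1 stands apart at 673 for ribosomal proteins and 34.4 for leukocyte genes.

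Antimicrobial genes of enterocytes, which the villus expresses toward its base, were lower in FAET in each repeat. The list summed to 10.6, 28.8, 66.1, 56.5 and 57.4 of 10,000 UMIs in FAET, against 65.5, 45.7, 112, 63.6 and 57.9 in FAEB, with a very small gap in repeat 5. Of 13 genes tested 10 had a negative fold change (median -0.93), and 2, Duoxa2 and Lypd8, were lower at an unadjusted edgeR p under 0.05. Over all genes 62.1% were negative and 9.61% lower at that threshold. Lypd8, which keeps flagellated bacteria from the epithelium, had 7, 0, 0, 42 and 2 UMIs in FAET, against 41, 23, 102, 55 and 35 in FAEB. Reg3g, a lectin that kills Gram-positive bacteria, had 5, 31, 49, 86 and 119 UMIs in FAET, against 112, 124, 325, 116 and 148 in FAEB (-0.79, standard error 0.90, edgeR adjusted p = 0.757). Pigr, which carries IgA across the epithelium, had 55, 30, 48, 76 and 117 in FAET, against 340, 159, 378, 112 and 179 in FAEB (-1.22, standard error 0.85, edgeR adjusted p = 0.516). The median of the list was -0.51 once FAET of repeat 1 was left out, less negative than that of all genes.

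Goblet cell genes took 2.56, 37.6, 37.3, 46.3 and 15.2 of 10,000 UMIs in FAET, against 11.2, 33.7, 36.4, 32.7 and 13.8 in FAEB, higher in FAET in 4 of 5 repeats. All 11 genes tested nevertheless had a negative fold change (median -0.76), and 6 of 11 did without FAET of repeat 1, beside 62.1% and 71.9% of all genes. Muc2, the gel-forming mucin of goblet cells, had 0, 0, 17, 32 and 0 UMIs in FAET, against 13, 16, 34, 47 and 9 in FAEB. Agr2, a disulfide isomerase of goblet cells, had 0 in FAET, against 3, 0, 7, 3 and 0 in FAEB, at least 2.48-fold lower over the groups. Of 10 Paneth cell genes, 8 had a negative fold change (median -2.58), 4 were lower and 1, Clps, was higher at an unadjusted edgeR p under 0.05. Over all genes 9.61% were lower and 4.69% higher. The defensins Defa23 and Defa24 owed their lower values to FAEB of repeat 1, with 98 and 112 UMIs there and at most 4 in any other of the 10 libraries. The 3 enteroendocrine genes tested, Sct, Reg4 and Chgb, had 0 UMIs in all FAET libraries, against 14, 14 and 7 in all of FAEB. Those of Reg4 all lay in FAEB of repeat 1 and those of Chgb in FAEB of repeat 2. Sct had 6 in FAEB of repeat 2 and 8 in FAEB of repeat 5. Over all 9956 genes tested, 2014 had 0 UMIs in all FAET libraries and 1105 in all FAEB libraries.

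Genes of proliferation, which marks the crypt, had few UMIs in FAET outside repeat 1. They took 17.1, 0.929, 0, 1.70 and 0.205 of 10,000 UMIs in FAET, against 11.02, 1.99, 3.78, 8.68 and 8.35 in FAEB. FAEB was higher in repeats 2 to 5. Hells, a helicase of dividing cells, had 0 UMIs in FAET, against 6, 0, 1, 7 and 8 in FAEB, at least 4.20-fold lower over the groups. Of 23 genes tested, 4 were lower and 3 higher at an unadjusted edgeR p under 0.05, where 9.61% of all genes were lower and 4.69% higher. The 3 higher, Dut, Tubb5 and Cdc20, had 8, 15 and 10 UMIs in FAET of repeat 1 and 0 in the other FAET libraries. Without that library all 20 genes left had a negative fold change, with a median of -3.30, and 7 were lower. Over all genes 71.9% were negative in that fit and 11.3% lower.

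Crypt stem cell genes took 5.88, 3.72, 1.29, 1.41 and 2.05 of 10,000 UMIs in FAET, against 8.40, 1.05, 2.49, 5.93 and 5.09 in FAEB, lower in FAET in each repeat but the second. Of 11 genes tested 7 were negative (median -2.03), and 8 of 9 without FAET of repeat 1 (-3.40). Prom1, a membrane protein of stem and early cells, had 1, 0, 0, 0 and 0 UMIs in FAET, against 14, 0, 4, 0 and 7 in FAEB. Lgr5, the receptor that marks crypt stem cells and also villus tip telocytes, did not share this direction, with 8, 7, 3, 10 and 2 UMIs in FAET and 7, 7, 6, 11 and 3 in FAEB (0.30, standard error 1.18, edgeR adjusted p = 0.99).

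Apoa1 and Apoa4 differed in direction between repeat 2 and the repeats of mouse 2, and they made up most of the summed villus tip list. That list of 10 genes, which the study names, took 6.52, 74.3, 260, 236 and 142 of 10,000 UMIs in FAET, against 13.6, 351, 58.7, 41.1 and 44.5 in FAEB. In repeats 3 to 5, all of mouse 2, FAET was higher, and in repeats 1 and 2, of mouse 1, it was lower. Other members did not follow this split, as Cdh1 had 12.1 of 10,000 UMIs in FAET of repeat 2, against 2.46 in FAEB, and Cdkn1a 1.85 in FAET of repeat 5, against 2.35 in FAEB. Apoa4, an apolipoprotein of chylomicrons, had 9, 56, 246, 905 and 258 UMIs in FAET, against 8, 1640, 164, 59 and 93 in FAEB. Its log2 fold change was 0.16 (standard error 0.93, edgeR adjusted p = 1) and 0.75 without FAET of repeat 1, but -3.51 in mouse 1 alone. Apoa1, the main apolipoprotein of high-density lipoprotein, had 21, 64, 321, 698 and 397 in FAET, against 72, 1240, 374, 189 and 221 in FAEB (0.01, standard error 0.85, and -2.93 in mouse 1 alone). FAEB of repeat 2 held most of the FAEB molecules of both genes. FAET of repeat 1 carries leukocyte markers and FAET of repeat 2 is the shallowest library, so these values, too, are not read as a difference between the mice.

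Other genes of the lipid path varied. Genes of lipid and cholesterol uptake took 5.62, 0.464, 19.7, 29.0 and 17.0 of 10,000 UMIs in FAET, against 9.28, 64.5, 18.2, 12.6 and 8.61 in FAEB, lower in FAET in both repeats of mouse 1 and higher in the 3 repeats of mouse 2. Because FAET of repeat 1 carries leukocyte markers and FAET of repeat 2 is the shallowest library, this split is not read as a difference between the mice. Mogat2, which rebuilds triglycerides from absorbed fat, had 0, 4, 0, 0 and 1 UMIs in FAET, against 3, 18, 17, 6 and 15 in FAEB (-2.67, standard error 1.31, edgeR adjusted p = 0.338). Mttp, which loads lipid onto apolipoprotein B, had 4, 1, 6, 27 and 14 in FAET, against 2, 94, 66, 18 and 14 in FAEB. Of 16 chylomicron genes 11 had a negative fold change (median -0.65, and -0.32 without FAET of repeat 1), and 1 was lower at an unadjusted p under 0.05. Relative to the median of all genes, this list changed sign with the scaling, from -0.17 with the scaling used here to 0.26 with the study's sum. The fatty acid carriers Fabp1 and Fabp2 had 6, 0, 16, 32 and 9, and 18, 0, 6, 108 and 7 UMIs in FAET, against 20, 116, 90, 8 and 4, and 37, 292, 48, 43 and 15 in FAEB, and in mouse 2 alone their fold changes were above 0 (0.05 and 0.67).

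Genes of nutrient uptake varied between libraries more than between segments. Of 164 solute carriers tested, 107 had a negative fold change (median -0.63), 17 were lower and 3 higher at an unadjusted edgeR p under 0.05, or 13 of 160 and 1 without FAET of repeat 1. These counts lay near those of all genes, of which 62.1% were negative and 9.61% lower, or 11.3% lower without that library. The summed share of the carriers was higher in FAET in 4 of 5 repeats (92.4 ± 29.5 of 10,000 UMIs in FAET and 75.3 ± 27.9 in FAEB, SD, n = 5 each). This list, too, had been applied to these libraries by the study and is not independent evidence. Slc26a3, the chloride-bicarbonate exchanger of the apical membrane (chr12:31390871-31473917, plus strand), had 0 UMIs in FAET, against 16, 1, 7, 5 and 6 in FAEB, at least 6.69-fold lower over the groups (edgeR adjusted p = 0.307). Of the 164 carriers it was the only 1 with no overlap between the segments. Over all genes 0.703% lay lower in FAET with no overlap, so this count is near the share of all genes. Slc51b, a subunit of the basolateral bile acid exporter, had 0, 0, 0, 3 and 0 in FAET, against 4, 10, 18, 2 and 9 in FAEB. Atp1b1, a subunit of the sodium pump, had 3, 1, 0, 31 and 21 in FAET, against 37, 48, 64, 13 and 35 in FAEB (-1.28, standard error 1.08, edgeR adjusted p = 0.629).

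Brush border hydrolases, which complete digestion at the cell surface, gave no direction. Of 19 tested, 8 had a positive and 11 a negative fold change (median -0.33), with 1 past an unadjusted edgeR p of 0.05 in each direction, and they took 67.6 ± 34.2 of 10,000 UMIs in FAET and 67.2 ± 49.2 in FAEB (SD, n = 5 each). Over all genes 62.1% were negative, 9.61% lower and 4.69% higher. Xenobiotic and retinoid genes were negative in 27 of 31 (median -1.12, 3 lower and 1 higher). The higher one was Cyp1a1, a target of the aryl hydrocarbon receptor that oxidizes aromatic compounds (chr9:57687928-57703824, plus strand). It had 0, 1, 24, 9 and 11 UMIs in FAET, against 0, 1, 1, 0 and 0 in FAEB (4.73, standard error 1.76, edgeR adjusted p = 0.307). FAET lay above FAEB in all 3 repeats of mouse 2, and mouse 1 held 1 UMI in each segment. Its fold change was 5.32 without FAET of repeat 1, and limma-voom called it higher.

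Junction and adhesion genes did not move as one, while single members stood apart. Of 24 junction genes, 15 had a negative fold change, and Ctnna1, the alpha-catenin that ties cadherins to actin, had 0, 0, 0, 6 and 0 UMIs in FAET, against 9, 13, 19, 9 and 10 in FAEB, with no overlap of the groups (-3.13, standard error 1.35, edgeR adjusted p = 0.31). Cdh1, its partner E-cadherin, had 4, 26, 20, 22 and 23 UMIs in FAET, against 32, 21, 30, 16 and 9 in FAEB, a fold change of 0.68 (standard error 1.07, edgeR adjusted p = 0.856). Krt19, a keratin of simple epithelia, had 11, 0, 0, 5 and 27 in FAET, against 34, 3, 107, 68 and 108 in FAEB (-2.33, standard error 1.07, edgeR adjusted p = 0.321). Dsp, the desmosomal plaque protein desmoplakin, had 0, 0, 38, 18 and 2 in FAET, against 1, 3, 2, 4 and 3 in FAEB (2.48, standard error 1.32, edgeR adjusted p = 0.37), and Lamb3, a laminin chain of the epithelial basement membrane, 0, 0, 19, 38 and 21 in FAET, against 2, 22, 3, 0 and 0 in FAEB (2.49, standard error 1.42, edgeR adjusted p = 0.404). In mouse 1 alone both had negative fold changes (-4.24 and -6.77), with 0 UMIs of either gene in its FAET libraries. Of these, repeat 1 carries the leukocyte markers and repeat 2 is the shallowest, so these values are not read as a difference between the mice.

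Itgav, the integrin alpha-v chain that binds matrix ligands, led the adhesion list. It had 11, 1, 0, 12 and 8 UMIs in FAET, against 0, 0, 2, 0 and 0 in FAEB (4.05, standard error 1.51, edgeR adjusted p = 0.307), higher in 4 of 5 repeats. The value without FAET of repeat 1 was 4.06. Of 29 adhesion and actin genes, 13 had a positive and 16 a negative fold change, and their summed share was 86.8 ± 19.6 of 10,000 UMIs in FAET and 71.9 ± 28.0 in FAEB (SD, n = 5 each).

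The rule's mean of 10 UMIs is harder to reach in FAET, with 242610 UMIs in all, than in FAEB, with 423381. On the higher side 40 genes met the rule, against 487 on the lower side, counts that cannot be compared apart from depth. Gm43291 had the smallest p, with 685, 0, 15, 197 and 249 UMIs in FAET, against 8, 96, 11, 58 and 7 in FAEB (2.59, standard error 0.84, edgeR adjusted p = 0.307). Without FAET of repeat 1 its log2 fold change was 1.90 (standard error 0.90, edgeR adjusted p = 0.341). This gene model (chr6:70719074-70740554, plus strand) spans on its own strand Igkc (chr6:70726435-70726966), the constant region of the immunoglobulin kappa light chain, and its 5 joining segments, none of which is a row of the table, so that its UMIs cannot be told from kappa chain RNA. Igha, the heavy chain of IgA, had 469, 17, 0, 109 and 182 UMIs in FAET, against 11, 115, 8, 44 and 1 in FAEB (2.16, standard error 0.85, edgeR adjusted p = 0.307). The same libraries were high for both, FAET of repeats 1, 4 and 5 and FAEB of repeat 2. Plasma cell genes as a list summed to 68.9, 7.90, 0, 17.0 and 39.2 of 10,000 UMIs in FAET, against 3.27, 13.7, 3.68, 7.38 and 0.130 in FAEB. Of 10 tested, 8 had a positive fold change, and 4 of 10 did without FAET of repeat 1, beside 37.9% and 28.1% of all genes.

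The other 11 genes chosen on the higher side were of general cell biology and mostly missed the unadjusted threshold. Adck4, a kinase-like protein of coenzyme Q synthesis, had 20, 35, 1, 1 and 1 UMIs in FAET, against 2, 2, 0, 1 and 0 in FAEB (3.77, standard error 1.44, edgeR adjusted p = 0.307), most of them in mouse 1. Nisch, a cytosolic protein that binds integrins, had 6, 8, 22, 3 and 12 in FAET, against 2, 4, 4, 3 and 0 in FAEB (2.58, standard error 1.22, edgeR adjusted p = 0.328). Erbb2ip, or Erbin, a scaffold of the basolateral membrane, had 9, 24, 0, 9 and 13 in FAET, against 0, 12, 2, 2 and 0 in FAEB (2.51, standard error 1.24, edgeR adjusted p = 0.338). Tor1aip1, Slc35g1, Tgfbi, Hnrnpc, Rab1a, Sdcbp, Cdk11b and Ankhd1 had log2 fold changes between 1.36 and 2.51 and edgeR p-values between 0.0507 and 0.237. Without FAET of repeat 1 their log2 fold changes lay between 1.52 and 2.82, and those of Adck4, Nisch and Erbb2ip were 3.90, 2.85 and 2.79. Tgfbi, a matrix protein, had 35, 23, 1, 10 and 15 UMIs in FAET, against 0, 11, 4, 1 and 9 in FAEB, and Rab1a, which acts between the endoplasmic reticulum and the Golgi, 2, 17, 26, 5 and 1 in FAET, against 7, 7, 9, 2 and 0 in FAEB.

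M cell genes had their highest sum in FAET of repeat 1. Their sum was 145, 15.3, 40.7, 86.3 and 83.5 of 10,000 UMIs in FAET, against 15.8, 64.3, 52.0, 33.1 and 44.9 in FAEB, higher in 3 of 5 repeats. Of 32 genes tested, 21 had a positive fold change (median 0.42), and 3, Clu, Stx11 and Ncf4, were higher at an unadjusted edgeR p under 0.05. Over all genes 37.9% were positive and 4.69% higher at that threshold. Clu, the secreted chaperone clusterin, had 312 UMIs in FAET of repeat 1 and 1, 1, 16 and 11 in repeats 2 to 5, against 2, 4, 6, 0 and 7 in FAEB (4.13, standard error 1.12, edgeR adjusted p = 0.301, and 1.07 without FAET of repeat 1). Follicle libraries whose markers fit their label also held it, with 158 to 759 UMIs in ILFB of repeats 1 to 4. Ncf4 had 13 UMIs in FAET of repeat 1 and Stx11 had 6 in FAET of repeat 4, with 0 in the other 9 libraries for each. Once FAET of repeat 1 was left out, 13 of 31 M cell genes were positive, beside 28.1% of all genes. The median of that fit is not read, because it fell on Ncf4, which had 0 UMIs in the 9 libraries left. The lists of M cells, T cells and B cells had likewise been applied to these libraries by the study.

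Genes of stromal matrix and endothelium took 37.7, 3.25, 4.72, 4.10 and 10.7 of 10,000 UMIs in FAET, against 3.60, 3.62, 3.09, 2.02 and 3.26 in FAEB, higher in 4 of 5 repeats. Of 22 tested, 18 had a positive fold change (median 1.74) and 7 were higher and 0 lower at an unadjusted edgeR p under 0.05, where 4.69% of all genes were higher. The fit without FAET of repeat 1 had 2 in each direction and a median of -0.31, above the -1.15 of all genes, and in repeats 3 to 5 the sum was higher in FAET. The leukocyte list had a median of 0.92 with all libraries and of -0.48 without FAET of repeat 1, and its sum, too, was higher in FAET in repeats 3 to 5. Lamc1, a laminin chain, was among the 2 that were higher, with 7, 0, 0, 1 and 20 UMIs in FAET and 0 in FAEB, as was Col6a1, a chain of collagen VI, with 20, 0, 0, 0 and 14 in FAET, against 1 UMI in FAEB of repeat 5. Igfbp7 and Sparc, of endothelium and matrix, had 42 and 37 UMIs in FAET of repeat 1 and 0 in the other FAET libraries. Macrophage and dendritic cell genes took 55.1, 0, 0, 3.67 and 6.36 in FAET, against 4.80, 2.34, 12.4, 2.17 and 3.52 in FAEB.

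Lymphocyte genes gave no common direction. Of 22 B cell genes, 15 had a positive fold change with all libraries and 5 of 22 without FAET of repeat 1. Over all genes 37.9% and 28.1% did. The B cell genes summed to 26.7 ± 21.3 of 10,000 UMIs in FAET and 26.7 ± 12.1 in FAEB (SD, n = 5 each). T cell genes split 12 to 11, with 4 higher and 4 lower at an unadjusted edgeR p under 0.05, where 4.69% of all genes were higher and 9.61% lower. Gzma, a protease of cytotoxic lymphocytes, had 0 UMIs in all FAET libraries, against 4, 6, 1, 3 and 7 in FAEB, at least 4.01-fold lower over the groups (edgeR adjusted p = 0.307). Ctsw, Cd7 and Nkg7, further genes of cytotoxic and intraepithelial lymphocytes, had 0 UMIs in FAET, against 8, 6 and 6 over all FAEB libraries. Their fold limits were only 1.53, 1.15 and 1.15. By in situ imaging the paper reported abundant Gzma+ cells within the FAET. The 0 counts are therefore not read as an absence of such cells. Hcst and Tyrobp, adaptors of activating receptors, had 15 and 38 UMIs in FAET of repeat 1 and 0 or 1 in each other FAET library. Genes of MHC class II presentation took 122, 6.04, 33.9, 25.6 and 54.8 of 10,000 UMIs in FAET, against 18.2, 39.6, 42.4, 12.6 and 49.8 in FAEB. A positive fold change was seen in 9 of 10 with all libraries and 2 of 10 without FAET of repeat 1, beside 37.9% and 28.1% of all genes.

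Telocyte and BMP genes, of the mesenchymal cells beneath the epithelium, were at a few molecules a library. Lepr, the leptin receptor, had 3, 2, 1, 0 and 3 UMIs in FAET, against 0, 0, 1, 0 and 0 in FAEB (3.37, standard error 1.66, edgeR adjusted p = 0.338). Per 10,000 UMIs FAET was higher in repeats 1, 2, 3 and 5, and the fold change was 3.36 without FAET of repeat 1. Bmpr1a, a receptor for BMPs, had 0, 0, 0, 1 and 0 in FAET, against 3, 5, 2, 6 and 5 in FAEB, with no overlap between the segments, and Wnt4 had 0 in FAET, against 1, 3, 9, 0 and 1 in FAEB. Of 14 genes tested, 9 had a negative fold change and 2 passed an unadjusted edgeR p of 0.05 in each direction. Over all genes 62.1% were negative, 9.61% lower and 4.69% higher.

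The remaining lists are given by their counts and medians, beside 62.1% negative and a median of -0.48 over all genes. Glycolysis (11 of 15 negative, median -0.25), interferon-stimulated genes (14 of 23, -0.23), NF-kB targets (11 of 22, 0.01), MHC class I presentation (12 of 16, -0.57), fatty acid oxidation (18 of 25, -0.64), p53 targets (11 of 13, -0.70), immediate early genes (6 of 13, 0.26), microvillus genes (10 of 16, -0.47) and lipid uptake genes (9 of 13, -0.28) each held at most 3 genes past an unadjusted edgeR p of 0.05 in a direction. Acads, a dehydrogenase of fatty acid oxidation, had 0 UMIs in FAET, against 1, 1, 7, 1 and 7 in FAEB, at least 3.25-fold lower over the groups. Tnfaip8, an NF-kB target, had 19 UMIs in FAET of repeat 3 and 0 in the other 9 libraries.

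Single genes were measured in the paper as fractions of UMIs, with the sum taken over protein-coding genes without mitochondrial and very abundant ones. In that unit, 25 genes were tested here by exact permutation within mice (2-sided, 120 arrangements, smallest possible p = 0.0167). None passed an adjusted p of 0.05. This exchange does not keep the pairs of a repeat. Sign flips within repeats, which keep them, gave 0 of 25 genes under an unadjusted p of 0.05. The smallest sign-flip p was 0.0625, the lowest that 32 arrangements can give. In the exchange within mice, the smallest unadjusted p belonged to a pair of antimicrobial genes. Nlrp6, an inflammasome sensor of enterocytes, had a mean of 0.809 ± 0.788 of 10,000 UMIs in FAET and 3.57 ± 2.47 in FAEB, and Lypd8 of 3.14 ± 5.64 in FAET and 13.5 ± 5.94 in FAEB (SD, n = 5 each, exact permutation p = 0.0333 and adjusted p = 0.417 for both). Nlrp6 was lower in FAET in 4 of 5 repeats on this sum and Lypd8 in 5 of 5.

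Without FAET of repeat 1 the leading genes of the exchange within mice were of the villus tip. Cdh1 had a mean of 19.1 ± 15.2 of 10,000 UMIs in FAET (n = 4) and 5.89 ± 2.91 in FAEB (n = 5, exact permutation p = 0.0167, adjusted p = 0.417), and Cdkn1a, the cell cycle inhibitor p21, 11.4 ± 6.87 in FAET and 3.64 ± 1.98 in FAEB (exact permutation p = 0.0333, adjusted p = 0.417). Single values of Cdh1 were 41.1, 17.1, 6.89 and 11.4 in FAET of repeats 2 to 5, against 10.6, 5.13, 5.89, 5.34 and 2.55 in FAEB of repeats 1 to 5, and FAET of repeat 1 held 0.896. Apoa1 averaged 198 ± 72.03 in FAET and 105 ± 112 in FAEB (exact permutation p = 0.283), and Lepr 1.38 ± 1.34 in FAET and 0.0393 ± 0.0878 in FAEB (exact permutation p = 0.0667), both with 4 FAET libraries. In FAET of repeat 2, the shallowest library, 26 UMIs gave the highest Cdh1 fraction.

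**Figure D5:**
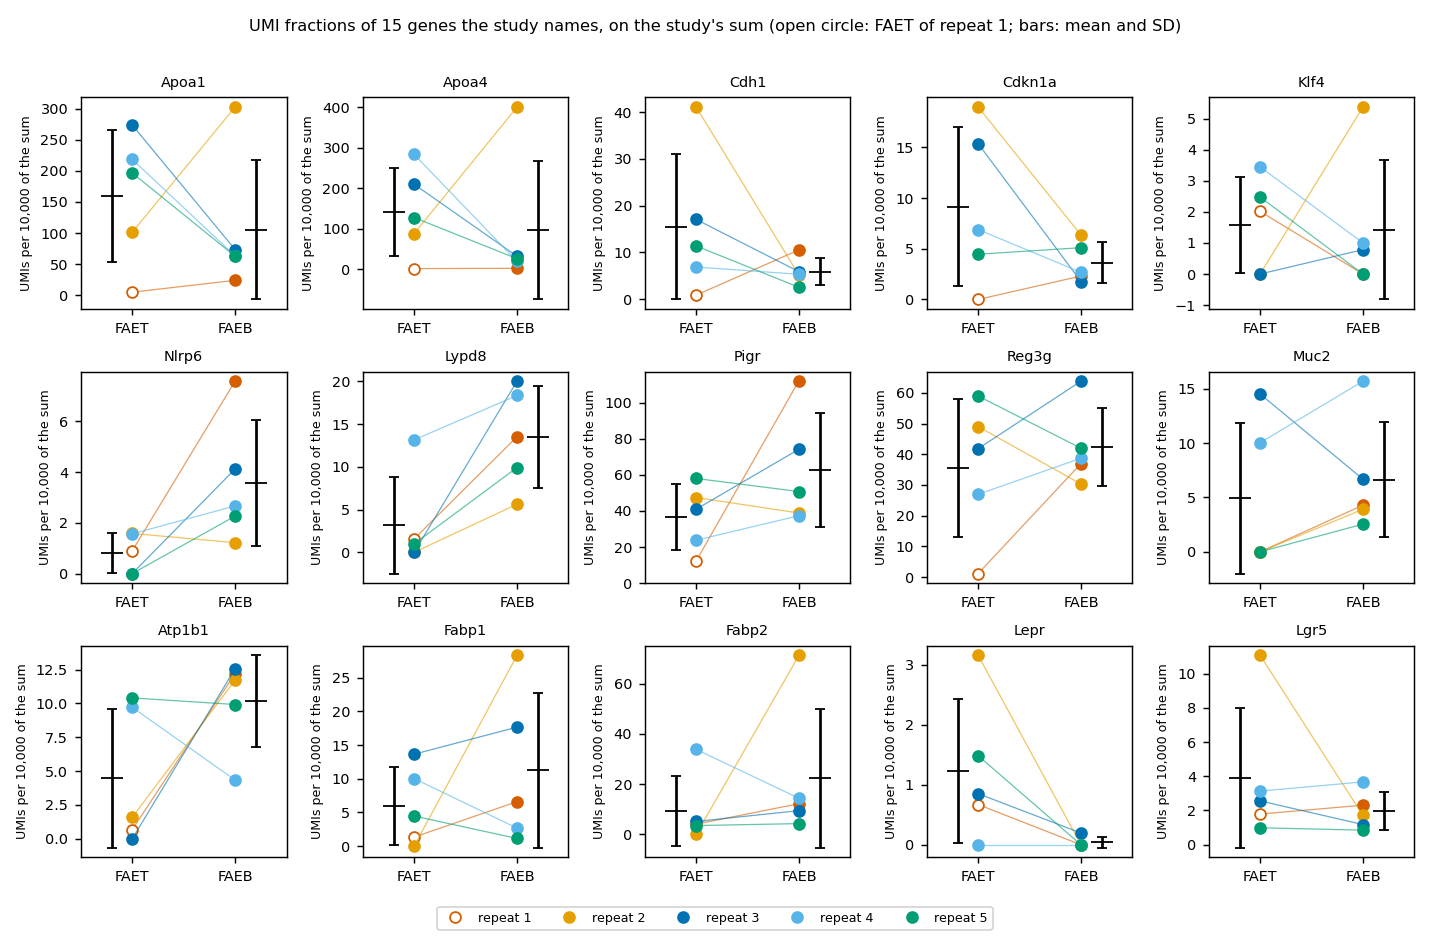
UMI fractions of 15 genes in each FAE library, in UMIs per 10,000 of the study's sum, FAET left and FAEB right, with a line per repeat and bars for mean and SD. The open circle is FAET of repeat 1. Lypd8 is lower in FAET in 5 of 5 repeats, and Apoa1 and Apoa4 are higher in FAET in repeats 3 to 5 and lower in repeat 2.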

How the data were processed

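The authors sequenced UMI libraries of laser-captured tissue, demultiplexed them with bcl2fastq (version 2.15.0.4, as the processing notes of the submitters give it), aligned reads to GRCm38.84 with zUMIs and STAR (versions, strand and intron settings not given in the sources used here) and deposited raw UMI counts of 24089 genes. The paper names mcSCRB-seq, while the labels also name another kit. Counts were tested as deposited with edgeR 4.0.16 in R 4.3.3 (quasi-likelihood, TMM factors, terms for mouse and segment, all 25 libraries, adjusted p 0.05), with and without FAET of repeat 1, and checked on simulated data. DESeq2 1.42.0 and limma 3.58.1 served as alternatives. Levels are UMIs per 10,000 of all UMIs of a library. A group at 0 was set at 3 UMIs over all 5 of its libraries for a fold limit, FAET of repeat 1 included. Genes named were the 25 that the paper names, up to 12 per direction with the smallest p among those averaging 10 or more UMIs in the higher segment, with 1 direction in at least 4 of 5 repeats, and up to 4 members of each list with the smallest p. Others were chosen after their values were seen, and some genes are not reported here. The gene lists and members were chosen with earlier results of these data known. Same-numbered libraries come from the same mouse and sections, which pairs them, although their deviations from the segment means correlated only weakly (mean r across genes 0.021, between -0.049 and 0.103 over 5 pairs). Overlaps of gene models were read from GENCODE M21.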

Additional observations from a re-analysis of the deposited data

Results flagged for a closer look

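A library was picked out where its gap to the nearest other library of its segment was above Dixon's 95% value of 0.71 of the group's range. Of 102 groups tested (21 lists and the 30 described genes with at least 100 UMIs, in each segment) 26 were picked out, where chance gives about 1 in 20. FAET of repeat 1 accounted for 10 and FAEB of repeat 2 for 8. All values are UMIs per 10,000.

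FAET of repeat 1 was the highest FAET library for ribosomal proteins (673), macrophage and dendritic cell genes (55.1), stromal genes (37.7), proliferation (17.1), Clu (39.9), Rpl8 (10.2), Hsp90ab1 (8.18), Tecpr2 (7.80), Ctla4 (6.14) and Phldb1 (1.02).

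FAEB of repeat 2 was the highest FAEB library for chylomicron genes (461), villus tip genes (351), Apoa4 (192), Apoa1 (145), Fabp2 (34.1), leukocyte genes (6.08), Lamb3 (2.57) and Tor1aip1 (1.64).

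Among the other FAET libraries, repeat 5 stood apart for Ccdc166 (31.2) and Krt19 (5.54), repeat 4 for Fabp2 (15.3) and Lypd8 (5.93), and repeat 3 for Slc35g1 (18.0). Among the FAEB libraries, repeat 4 stood apart for Phldb1 (162), repeat 1 for Paneth cell genes (46.5) and repeat 3 for macrophage and dendritic cell genes (12.4).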

How the results depend on the processing

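With all libraries, where edgeR called 0 genes, other settings called few: 2 with RLE size factors, 2 with the study's sum as library size, 3 with DESeq2, 2 without the libraries whose markers go against their label, 2 in mouse 2 only, and between 0 and 2 when each FAE library was left out in turn (2 without FAET of repeat 1 or FAEB of repeat 2). Without FAET of repeat 1, where edgeR called 2 genes, the count was 43 with limma-voom, 28 with DESeq2, 13 with the study's sum (12 higher and 1 lower), 4 after thinning to the shallowest FAE library, 1 with no filter, 0 with a stricter filter (10 or more UMIs in 5 or more libraries), 0 with only the FAET and FAEB libraries and 0 in mouse 1 only. It was 0 with the replicate block, also when the block was joined with only the FAE libraries (0) or without the libraries against their label (0), a pair of fits added after seeing the data. Leaving out a further library gave 0 (FAET of repeat 5) to 11 (FAET of repeat 4). The cause of these differences was not tested.

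Of 62 genes described under 24 settings, 51 kept their direction in every setting and 27 of 1442 values reversed. Many of the 62 had been chosen from these counts for a small p or a shared direction over repeats. Their kept direction is therefore partly fixed by that choice. In mouse 1 only, the log2 fold changes were -2.93 for Apoa1, -3.51 for Apoa4, -0.21 for Cdkn1a, -6.77 for Lamb3, -4.24 for Dsp, 0.66 for Ctla4 and 0.078 for Tecpr2. Mouse 1 gave only 2 FAET libraries, of which repeat 1 carries leukocyte markers and repeat 2 is the shallowest. In mouse 2 only, they were 0.053 for Fabp1 and 0.67 for Fabp2. With limma-voom, Cdkn1a had -0.29 and Apoa1 -0.26, and Apoa1 had -0.056 with no filter and -0.0032 with only the FAE libraries. Leaving out each library in turn gave -0.39 to 1.21 for Apoa1, -0.59 to 2.63 for Apoa4 (the upper values without FAEB of repeat 2), -0.050 to 0.67 for Lgr5 and -8.01 to 0.85 for Phldb1 (the upper value without FAEB of repeat 4). Of 333 list medians over 42 lists and 8 settings, 291 moved by less than the spread between repeats. Relative to the median of all genes, the scaling turned the sign of 8 lists with all libraries, namely protein folding, MHC class I, brush border hydrolases, junctions, chylomicron, fatty acid oxidation, goblet and nutrient absorption genes, and of the T cell and p53 lists without FAET of repeat 1. A gene at 0 over the FAET libraries could lie at up to 0.124 UMIs per 10,000.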
